A study of Mus musculus with 15 samples.

Results

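Retinas without the Cnga3 subunit of the cone channel were compared with retinas without the Cngb3 subunit, across genes, on 10 of the 15 arrays of a mouse expression beadchip study. The 10 arrays are those titled CNGA3 and CNGB3, replicates 1 to 5 of each. The Cnga3 double knockout mice (genotype Cnga3-/-/Nrl-/-, 5 arrays) and the Cngb3 double knockout mice (Cngb3-/-/Nrl-/-, 5 arrays) were 30 days old and on a C57BL/6 background. The other 5 arrays came from Nrl-/- mice of the same age and background and are not part of the contrast. Each array carried the RNA of 1 animal, whose retinas had been pooled, so the spread between arrays is a spread between animals. All groups lack Nrl, so the comparison describes the subunits only in a retina without rods. The labels give neither the sex of the animals nor which part of each gene is deleted.

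The cone cyclic nucleotide-gated channel opens when cyclic GMP binds to it in the dark and carries sodium and calcium into the outer segment. Cnga3 is the subunit that can form a working channel by itself, whereas Cngb3 modulates the channel and needs Cnga3 to make one. Loss of either subunit causes achromatopsia in people and cone degeneration in mice. Nrl is the transcription factor that makes rods, and a mouse retina that lacks it forms cone-like photoreceptors instead.

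Levels below are normalized log2 intensities of a probe, and differences are Cnga3 minus Cngb3 double knockout on the log2 scale with their standard error (SE). Of 25697 probes, 13077 had a detection p under 0.01 on at least 5 of the 15 arrays and were kept, covering 9097 genes. A probe is called at a Benjamini-Hochberg adjusted p under 0.05 over the kept probes in limma's moderated test. Median intensity on the 10 arrays ran from 147.3 to 171.0, with 11646 to 13763 probes detected. The number of arrays limits the precision, and no slide or scan batch is given. As a marker of retina, the cone opsin Opn1mw averaged 14.23 ± 0.177 in Cnga3 double knockout and 14.04 ± 0.118 in Cngb3 double knockout retinas (SD, n = 5 each). This does not measure carry-over from other tissues of the eye. Signal of the Nrl probe passed detection on 0 of 15 arrays. No array came from a retina with Nrl, so the probe cannot check that label.

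Replicate 4 of the Cnga3 double knockout stood apart from the other arrays. Its correlations reached down to 0.940 within its group, against a lowest of 0.979 within the Cngb3 double knockout, and on the first principal component, 38.3% of the variance, it lay at 60.7 with the other 9 double knockout arrays between -18.3 and 14.1. Its Y-linked Eif2s3y was at 4.40, whereas the other 9 arrays had 9.05 to 9.89, and it had Xist signal. It was the lowest or highest array of its group in 30 of the 35 gene lists examined. It had the highest mean level of pigment epithelium markers and of microglia genes among the 10 arrays.

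The targeted genes come first. The Cngb3 probe read 9.17, 8.33, 8.80, 9.35 and 9.56 in the Cnga3 double knockout, against 7.03, 6.96, 6.68, 7.24 and 6.84 in the Cngb3 double knockout. The groups did not overlap, and Cngb3 was higher in the Cnga3 double knockout by 2.09 (SE 0.387, adjusted p = 0.0251 in limma). In Nrl-/- retinas, whose genotype keeps Cngb3, the probe read 8.58, 9.66, 7.32, 10.05 and 9.52 (mean 9.03 ± 1.1, SD, n = 5). Nrl-/- replicate 3, at 7.32, was thus close to the highest Cngb3 double knockout array, at 7.24. Signal of the Cngb3 probe was still detected on all 5 Cngb3 double knockout arrays, and whether the probe lies in the deleted part is not given. The call was lost on leaving out any of 7 single arrays (Cnga3 replicates 3, 4 and 5, and Cngb3 replicates 1, 2, 3 and 4), the highest adjusted p being 0.0933 without Cnga3 replicate 5. In the limma fit on the 10 double knockout arrays alone, without the Nrl-/- arrays, the Cngb3 probe had an adjusted p of 8e-04. Neither of the 2 Cnga3 probes was called. The brighter one averaged 8.30 ± 0.358 in the Cnga3 double knockout and 8.54 ± 0.16 in the Cngb3 double knockout (difference -0.25, SE 0.201, adjusted p = 0.604). The other one differed by 0.18 (SE 0.151, adjusted p = 0.619), so these probes do not separate the genotypes, and the label of the Cnga3 arrays has no check from them.

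Between the double knockouts 53 of 13077 probes were called, which is 0.405%. Of these, 24 were higher (0.184%) and 29 lower (0.222%) in the Cnga3 double knockout, and they named 20 higher and 23 lower genes. The median size of a called change was 2.14-fold, with 11 higher and 21 lower probes at 2-fold or more. At an unadjusted p under 0.05 there were 1900 probes. Of the 53 called probes, 43 had groups that did not overlap, a pattern shown by 645 of all kept probes (4.93%). For comparison, 1051 probes (8.04%) were called between Cnga3 double knockout and Nrl-/- retinas and 351 (2.68%) between Cngb3 double knockout and Nrl-/- retinas. These last comparisons share the Nrl-/- arrays, so their values stand side by side below without a test between them. Of the 53 calls, 18 were made in all 15 fits that left out 1 array, and the rest were lost in 1 to 11 of them. Without Cnga3 replicate 4, 41 of the 53 were kept. The 12 that were lost had adjusted p-values of 0.0527 for Cngb3, Arr3, Ppp3ca and the brighter Hes5 probe, 0.0567 for Necab1, Nxnl2 and 2410004B18Rik, 0.0609 for Naa60, 0.0633 for Rd3, 0.0687 for Yipf3, 0.0698 for Peli3 and 0.084 for Rnf220. Counting the brightest probe of each gene, as for the gene lists below, 38 of 9097 genes were called (0.418%), 16 higher (0.176%) and 22 lower (0.242%).

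**Figure D1:**
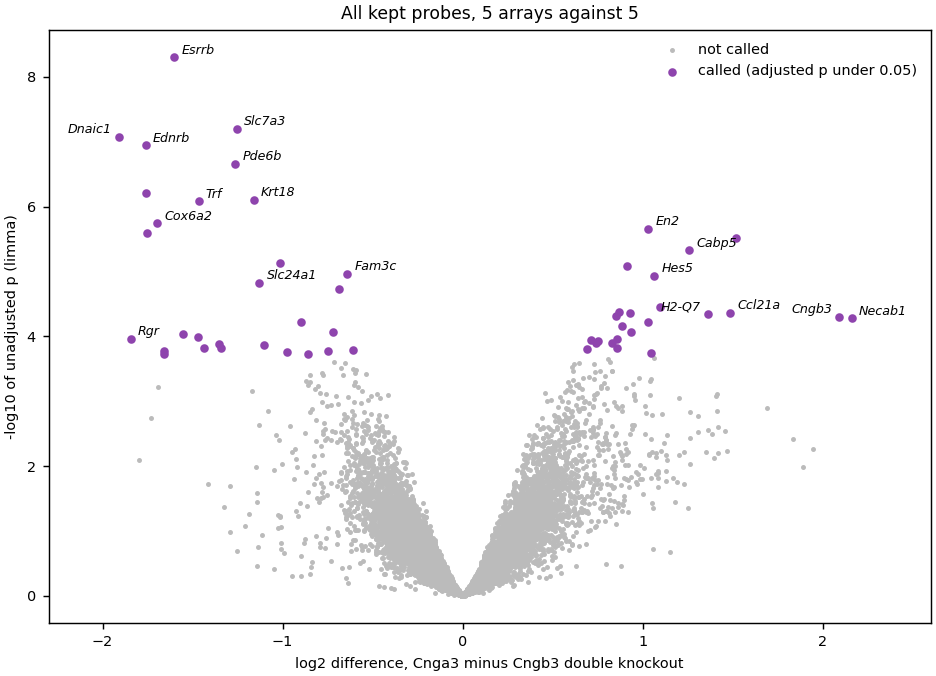
Each point is 1 of 13077 kept probes, with the log2 difference of Cnga3 minus Cngb3 double knockout on the x axis and -log10 of the unadjusted limma p on the y axis. The 53 called probes are purple, with Esrrb at the top on the left, lower in the Cnga3 double knockout, and Necab1 and Cngb3 farthest to the right.

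Of 18 measured genes of the rod list, 3 were lower in the Cnga3 double knockout, and 1 of 20 genes of the cone list was called. Pde6b, which encodes part of the catalytic core of rod phosphodiesterase, read 7.85, 7.5, 7.44, 6.83 and 7.44 in the Cnga3 double knockout, against 8.68, 8.75, 8.62, 8.63 and 8.70 in the Cngb3 double knockout. Every Cnga3 double knockout array was below every Cngb3 double knockout array, by 1.26 on average (difference -1.26, SE 0.151, adjusted p = 0.000569 in limma). Both double knockouts were below Nrl-/- retinas, which averaged 10.22 ± 0.121 (SD, n = 5). The difference from Nrl-/- was -2.81 for the Cnga3 double knockout (adjusted p = 1.46e-08) and -1.55 for the Cngb3 double knockout (adjusted p = 2.66e-05). Slc24a1, the sodium, calcium and potassium exchanger of rods, read 7.53, 7.14, 7.22, 6.42 and 6.75 in the Cnga3 double knockout, against 7.86, 7.96, 8.31, 8.50 and 8.07 in the Cngb3 double knockout. All Cnga3 double knockout arrays were below all Cngb3 double knockout arrays (difference -1.13, SE 0.188, adjusted p = 0.0108). Here both double knockouts were above Nrl-/- retinas, by 0.70 for Cnga3 (adjusted p = 0.0309) and 1.83 for Cngb3 (adjusted p = 4.11e-05). In bulk RNA of this kind, fewer cells of a type and less RNA per cell cannot be told apart. The calls of Pde6b and Slc24a1 were kept in all 15 fits that left out 1 array.

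Cone arrestin, Arr3, which shuts off light-activated cone opsin, fell in both double knockouts relative to Nrl-/- retinas. Its called probe read 10.75, 10.80, 11.01, 10.88 and 10.86 in the Cnga3 double knockout, against 11.40, 11.34, 11.46, 11.53 and 11.61 in the Cngb3 double knockout. The groups were tight and did not overlap (difference -0.61, SE 0.126, adjusted p = 0.0445). The other Arr3 probe differed by -0.34 (adjusted p = 0.328), so the probes did not give the same call. The call was also lost on leaving out any of 11 single arrays (all but Cnga3 replicate 1 and Nrl-/- replicates 1, 2 and 3), the adjusted p then reaching 0.138 without Cnga3 replicate 2. Against Nrl-/- the called probe differed by -2.26 in the Cnga3 double knockout (adjusted p = 1.46e-08) and by -1.65 in the Cngb3 double knockout (adjusted p = 3.98e-06).

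Other photoreceptor genes were higher in the Cnga3 double knockout. Rd3, which binds and restrains retinal guanylate cyclase and is needed for its transport, read 10.67, 11.13, 11.07, 11.21 and 11.03 in the Cnga3 double knockout, against 10.21, 10.32, 10.27, 10.24 and 10.36 in the Cngb3 double knockout. The Cngb3 double knockout arrays lay close together and below all others (difference 0.74, SE 0.15, adjusted p = 0.0414). Nxnl2, a thioredoxin-like gene that promotes photoreceptor survival, read 10.16, 9.96, 10.31, 10.22 and 9.95, against 9.13, 9.17, 9.43, 9.56 and 9.74 in the Cngb3 double knockout, again without overlap (difference 0.71, SE 0.142, adjusted p = 0.0399). Nrl-/- retinas averaged 10.99 ± 0.326 for Rd3 and 10.45 ± 0.184 for Nxnl2 (SD, n = 5). Leaving out 1 array ended the call of Rd3 in 10 of 15 fits (adjusted p up to 0.13, without Cnga3 replicate 2) and that of Nxnl2 in 9 (up to 0.131, without Cngb3 replicate 2).

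The cone list had 1 of 20 measured genes called, Cngb3 itself, with a median difference of 0.04, against -0.03 over all genes. The cone transducin subunit Gnat2 averaged 13.08 ± 0.269 in the Cnga3 double knockout and 13.30 ± 0.127 in the Cngb3 double knockout (adjusted p = 0.585), and the S-cone opsin Opn1sw 10.31 ± 0.453 and 10.57 ± 0.134 (adjusted p = 0.528). In both, the lowest Cnga3 double knockout array was replicate 4. The rod list had 3 of 18 genes called, all lower, namely Esrrb, Pde6b and Slc24a1, with a median of -0.03 and 7 of 18 differences positive. At an unadjusted p under 0.05, 3 of the 18 were higher and 4 lower. Gngt1, the gamma subunit of rod transducin, averaged 8.14 ± 0.844 in the Cnga3 double knockout and 7.04 ± 0.435 in the Cngb3 double knockout (SD, n = 5 each), with overlap and without passing the test (difference 1.10, adjusted p = 0.167 in limma). The rod transducin Gnat1 did not pass it either (difference 0.34, adjusted p = 0.248). Outer segment and cilium genes had 1 of 25 called, Rd3, with a median of -0.03.

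**Figure D2:**
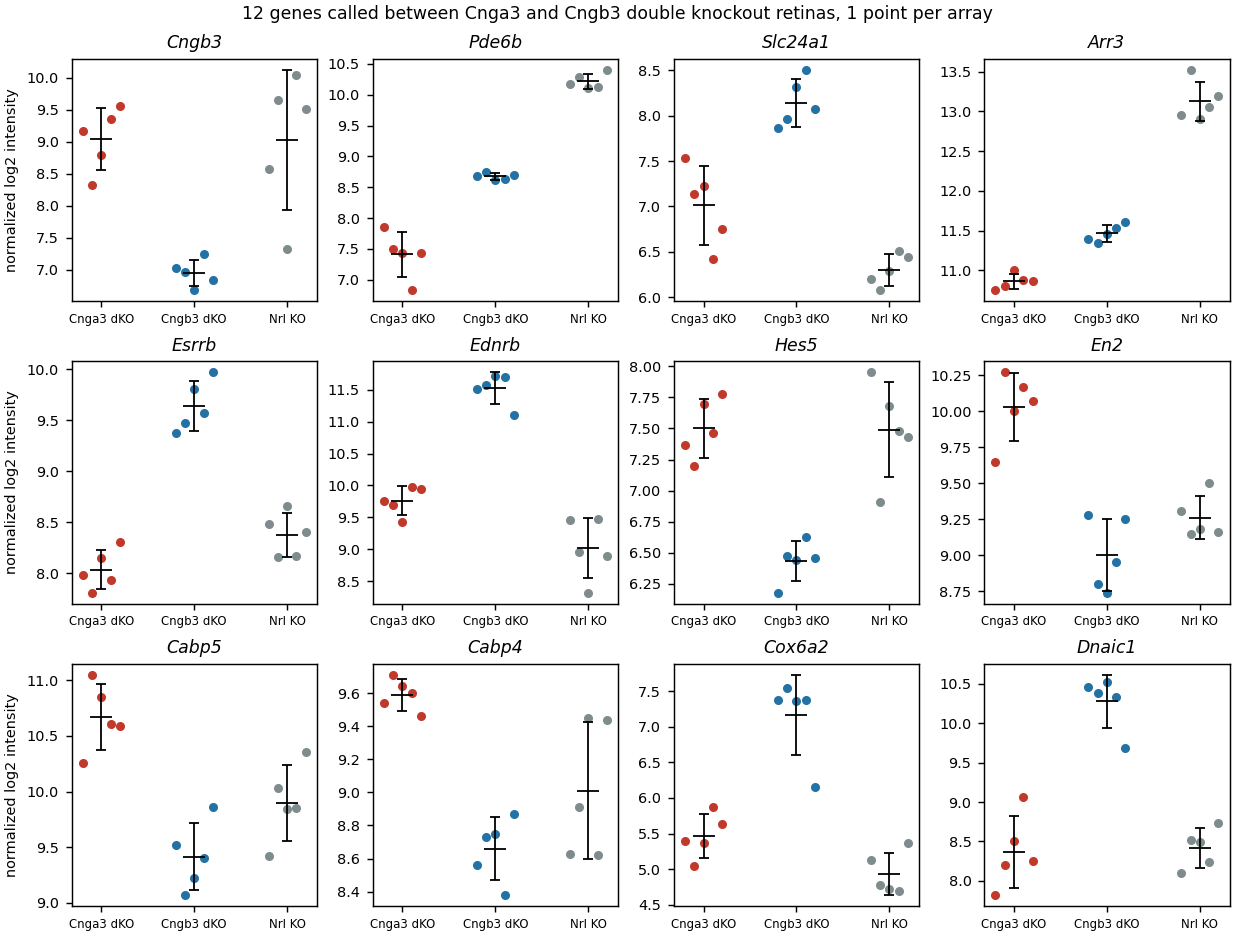
Normalized log2 intensity of 12 called genes, 1 point per array, for Cnga3 double knockout (dKO), Cngb3 double knockout and Nrl-/- retinas, with the mean and SD of 5 arrays as bars. The axes do not start at 0, and Arr3 is shown by its called probe. In all 12 genes the Cnga3 and Cngb3 double knockout arrays do not overlap.

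The smallest adjusted p belonged to a transcription factor. Esrrb, an orphan nuclear receptor that supports rod survival and energy metabolism, read 7.98, 7.81, 8.15, 7.93 and 8.31 in the Cnga3 double knockout, against 9.38, 9.47, 9.81, 9.57 and 9.97 in the Cngb3 double knockout. The groups were more than a log2 unit apart without overlap (difference -1.60, SE 0.147, adjusted p = 6.51e-05, 3.04-fold). Nrl-/- retinas averaged 8.37 ± 0.211 (SD, n = 5). Esrrb differed from them by -0.34 in the Cnga3 double knockout (adjusted p = 0.16) and by 1.27 in the Cngb3 double knockout (adjusted p = 0.000134). Esrrb was the only one of 13 measured photoreceptor transcription factors called, and the list's median was 0.24, with 10 of 13 differences positive. Rax, a homeobox factor of retinal progenitors and photoreceptors, averaged 8.41 ± 0.263 in the Cnga3 double knockout and 7.73 ± 0.277 in the Cngb3 double knockout without overlap, but did not pass the test (adjusted p = 0.128). Crx, the homeobox factor that switches on photoreceptor genes, differed by 0.27 (adjusted p = 0.301).

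A pair of other developmental regulators were higher in the Cnga3 double knockout. En2, the homeobox gene engrailed 2, read 9.65, 10.27, 10, 10.17 and 10.07, against 9.28, 8.80, 8.74, 8.95 and 9.25 in the Cngb3 double knockout. Both ranges were apart (difference 1.03, SE 0.147, adjusted p = 0.00288), and En2 was also above Nrl-/- retinas in the Cnga3 double knockout by 0.77 (adjusted p = 0.00649). Hes5, a transcriptional repressor switched on by Notch and expressed in Mueller glia, was called on both of its probes. One probe read 7.37, 7.2, 7.7, 7.46 and 7.78 in the Cnga3 double knockout, against 6.18, 6.47, 6.44, 6.63 and 6.46 in the Cngb3 double knockout. It differed by 1.07 without overlap (SE 0.173, adjusted p = 0.00896), and the brighter probe by 0.75 (SE 0.151, adjusted p = 0.0409). The Cnga3 double knockout was near Nrl-/- retinas on the first of these probes (difference 0.01, adjusted p = 0.969), whereas the Cngb3 double knockout was below them by 1.05 (difference -1.05, adjusted p = 0.00488). The call of the brighter probe was lost in 8 of 15 fits that left out 1 array, the adjusted p then reaching 0.123 without Cngb3 replicate 3.

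Ednrb, the endothelin receptor that rises in Mueller glia when photoreceptors are injured, was lower in the Cnga3 double knockout on both of its probes. The brighter probe read 9.76, 9.70, 9.42, 9.98 and 9.94 in the Cnga3 double knockout, against 11.51, 11.58, 11.72, 11.70 and 11.11 in the Cngb3 double knockout. The groups did not overlap (difference -1.76, SE 0.201, adjusted p = 0.000374, 3.39-fold), and the other probe differed by -1.75 (SE 0.252, adjusted p = 0.00306). Relative to Nrl-/- retinas, at 9.02 ± 0.477 (SD, n = 5), the brighter probe was 0.74 higher in the Cnga3 double knockout (adjusted p = 0.0332) and 2.50 higher in the Cngb3 double knockout (adjusted p = 4.42e-06). It was the only call among 18 measured injury and gliosis genes, whose median was -0.20 with 13 of 18 differences negative. Serpina3n, a protease inhibitor of reactive glia, averaged 8.69 ± 0.839 in the Cnga3 double knockout and 10.48 ± 0.301 in the Cngb3 double knockout without overlap, and did not pass the test (difference -1.79, SE 0.596, adjusted p = 0.184). Gfap, the intermediate filament of reactive glia, differed by -0.29 (adjusted p = 0.661).

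Trf, the iron carrier transferrin, read 9.85, 10.42, 10.37, 10.34 and 10.25 in the Cnga3 double knockout, against 11.96, 11.84, 12.02, 11.65 and 11.09 in the Cngb3 double knockout. No Cnga3 double knockout array reached the other range (difference -1.47, SE 0.193, adjusted p = 0.00136, 2.76-fold). Trf was below Nrl-/- retinas in the Cnga3 double knockout (difference -0.68, adjusted p = 0.0411) and above them in the Cngb3 double knockout (difference 0.79, adjusted p = 0.0373). Trf and Hes5, which moved in opposite directions, were the 2 calls among 24 Mueller glia markers, whose median was -0.04. The calls of Esrrb, En2, Ednrb and Trf were kept in all 15 fits that left out 1 array.

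The calcium handling list had 1 of 25 measured genes called, Slc24a1, which was lower, and a median of -0.01 with 11 differences positive. Without Cnga3 replicate 4 its median was 0.11, with 17 of 25 differences positive. Cabp5 and Cabp4, calcium sensors of retinal neurons, were higher in the Cnga3 double knockout. Cabp5, of bipolar cells, read 10.26, 11.05, 10.85, 10.61 and 10.59, against 9.52, 9.07, 9.22, 9.40 and 9.86 in the Cngb3 double knockout. All 5 were above the highest Cngb3 double knockout array (difference 1.26, SE 0.19, adjusted p = 0.00472, 2.39-fold), and the call was kept in all 15 fits that left out 1 array. Cabp4, which regulates the calcium channel of photoreceptor terminals, read 9.54, 9.71, 9.64, 9.60 and 9.46 in the Cnga3 double knockout, against 8.56, 8.73, 8.75, 8.38 and 8.87 in the Cngb3 double knockout. The groups lay apart (difference 0.93, SE 0.17, adjusted p = 0.0245), while the dimmer Cabp4 probe differed by 0.68 (adjusted p = 0.0926). The Cabp4 call was lost on leaving out any of 6 single arrays (Cnga3 replicates 2 and 3, Cngb3 replicates 1, 2, 3 and 4), the adjusted p then reaching 0.0799 without Cngb3 replicate 1. In the limma fit on the 10 double knockout arrays alone it was 0.00334. Ppp3ca, the catalytic subunit of calcineurin, was called on its dimmest probe (difference 0.88, SE 0.169, adjusted p = 0.0303). Its other 2 probes differed by -0.21 and -0.03 and were not called, so the direction of Ppp3ca is uncertain. The called probe was detected on 1 of 5 Cngb3 double knockout arrays, and its call was lost in 6 of 15 fits that left out 1 array (adjusted p up to 0.106, without Cnga3 replicate 5).

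Of 18 measured bipolar cell markers, Cabp5 was the 1 called, and the list's median was 0.24 with 13 differences positive, against 45.9% positive over all genes. The mean level of the list, relative to the mean of the 15 arrays, ran from 0.05 to 0.187 in Cnga3 double knockout and from -0.173 to -0.042 in Cngb3 double knockout retinas, without overlap. Such levels did not overlap for 3 of the 35 lists, namely bipolar, immediate early and retinoid cycle genes. For retinoid cycle genes they ran from -0.515 to -0.025 in Cnga3 and from 0.082 to 0.352 in Cngb3 double knockout retinas. Gnao1, the G protein of ON bipolar cells, averaged 11.30 ± 0.25 in the Cnga3 double knockout and 10.71 ± 0.143 in the Cngb3 double knockout and missed the threshold (adjusted p = 0.0811). Grm6, the glutamate receptor that defines ON bipolar cells, averaged 11.88 ± 0.356 in the Cnga3 double knockout and 11.90 ± 0.198 in the Cngb3 double knockout (adjusted p = 0.968). The photoreceptor and ribbon synapse list had 1 of 22 genes called, Cabp4, and a median of 0.15.

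Promoters of 32 of the 43 called genes were matched in RefSeq (GRCm38.p6), each window being 300 bases around a gene start. They were searched on both strands for TAATCC, the core that Crx and other homeobox factors of its kind bind, and for AAGGTCA, the half-site of Esrrb and related receptors. TAATCC was in the windows of 6 of the 32 genes (18.8%), against 7.53% of measured genes and 8.14% of all genes in the table, and AAGGTCA in 1 of 32 (3.12%), against 3.96% of measured and 5.38% of all genes. No test was made of these shares, and a match is a description of the letters. The windows of Cabp5, Nxnl2 and Ednrb are shown because their genes carry the results above and hold a match, and that of Pde6b because it was the phototransduction gene with the largest fall and its window holds neither motif. Capitals mark the motif letters as they run on the printed strand, GGATTA being TAATCC on the opposite strand.
Cabp5 (chr7:13397905-13398204, plus strand): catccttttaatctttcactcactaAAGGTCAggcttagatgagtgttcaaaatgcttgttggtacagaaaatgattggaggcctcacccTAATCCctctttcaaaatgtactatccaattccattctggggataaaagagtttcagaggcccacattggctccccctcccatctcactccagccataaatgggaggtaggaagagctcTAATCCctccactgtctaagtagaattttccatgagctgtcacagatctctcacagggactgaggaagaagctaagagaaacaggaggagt
Nxnl2 (chr13:51170775-51171074, plus strand): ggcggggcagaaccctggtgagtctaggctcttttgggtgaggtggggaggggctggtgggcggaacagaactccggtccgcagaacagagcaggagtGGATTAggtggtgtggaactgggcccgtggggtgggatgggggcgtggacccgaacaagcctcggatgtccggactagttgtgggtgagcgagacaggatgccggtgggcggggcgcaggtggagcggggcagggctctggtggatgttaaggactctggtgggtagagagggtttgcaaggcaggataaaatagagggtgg
Ednrb (chr14:103843652-103843951, minus strand): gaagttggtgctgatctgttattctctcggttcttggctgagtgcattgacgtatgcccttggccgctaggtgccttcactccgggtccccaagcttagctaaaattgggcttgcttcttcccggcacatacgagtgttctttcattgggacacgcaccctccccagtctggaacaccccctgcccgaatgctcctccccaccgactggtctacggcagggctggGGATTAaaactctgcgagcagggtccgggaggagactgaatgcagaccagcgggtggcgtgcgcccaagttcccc
Pde6b (chr5:108388123-108388422, plus strand): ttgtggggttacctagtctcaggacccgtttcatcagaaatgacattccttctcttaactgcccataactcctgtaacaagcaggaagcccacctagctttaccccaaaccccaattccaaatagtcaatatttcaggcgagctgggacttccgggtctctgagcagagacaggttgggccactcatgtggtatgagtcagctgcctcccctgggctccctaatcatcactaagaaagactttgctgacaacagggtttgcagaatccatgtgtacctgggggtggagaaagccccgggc

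Genes of the retinal pigment epithelium, the pigmented layer that regenerates visual chromophore and can adhere to a dissected retina, were lower in the Cnga3 double knockout on average. Of 14 measured markers, 3 were called and all 3 were lower, and the list's median was -1.08 with 13 of 14 differences negative. Rgr, an opsin of the pigment epithelium and Mueller glia, was called on all 3 of its probes. Its probe with the lowest p read 7.89, 8.58, 7.75, 9.79 and 7.36 in the Cnga3 double knockout, against 10.18, 10.29, 10.28, 10.38 and 9.46 in the Cngb3 double knockout. Only Cnga3 replicate 4 reached into the range of the Cngb3 double knockout (difference -1.84, SE 0.367, adjusted p = 0.0395). Ttr, the carrier of thyroxine and of retinol-binding protein, read 11.58, 12.06, 11.75, 13.40 and 11.64 in the Cnga3 double knockout, against 13.62, 13.67, 13.89, 13.61 and 12.98 in the Cngb3 double knockout, with the same array overlapping (difference -1.47, SE 0.291, adjusted p = 0.0395). Rdh5, a retinol dehydrogenase of the visual cycle, read 8.65, 9.12, 8.70, 10.27 and 8.65, against 10.63, 10.72, 10.72, 10.59 and 9.90 in the Cngb3 double knockout, where replicate 5 was the lowest (difference -1.44, SE 0.295, adjusted p = 0.0443). Stra6, the receptor for retinol-binding protein, was lower by the same measure (difference -1.34, SE 0.276, adjusted p = 0.0443) and, with Rgr and Rdh5, made up the 3 calls among 12 retinoid cycle genes, whose median was -0.16. It was detected on 4 of 5 Cnga3 double knockout arrays.

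The pigment epithelium list varied strongly between arrays. Its mean level, relative to the mean of the 15 arrays, was -1.2, -0.763, -0.798, 0.695 and -0.41 in the Cnga3 double knockout, against 0.558, 0.461, 0.463, 0.162 and -0.093 in the Cngb3 double knockout, and the Nrl-/- arrays ran from -0.11 to 0.47. The summed linear level of the 14 markers ranged from 8560 to 29800 in Cnga3 double knockout and from 19000 to 31100 in Cngb3 double knockout retinas. Without Cnga3 replicate 4, 5 markers were called lower, Ttr, Rdh5, Rgr, Oca2 and Rpe65, and the difference of the Rgr probe was -2.22 (adjusted p = 0.00109). The median of the 14 markers was then -1.42. Leaving out 1 array also ended the calls of Rgr, Ttr, Rdh5 and Stra6 in 8 to 11 of 15 fits, without Cnga3 replicates 2, 3 or 5, Cngb3 replicates 1 to 4 or, depending on the gene, Cnga3 replicate 1 and Nrl-/- replicates 1, 2, 4 or 5. The highest adjusted p of these was 0.138, for Stra6 without Cnga3 replicate 2. Whether adhering pigment epithelium has a part in these differences was not tested.

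**Figure D3:**
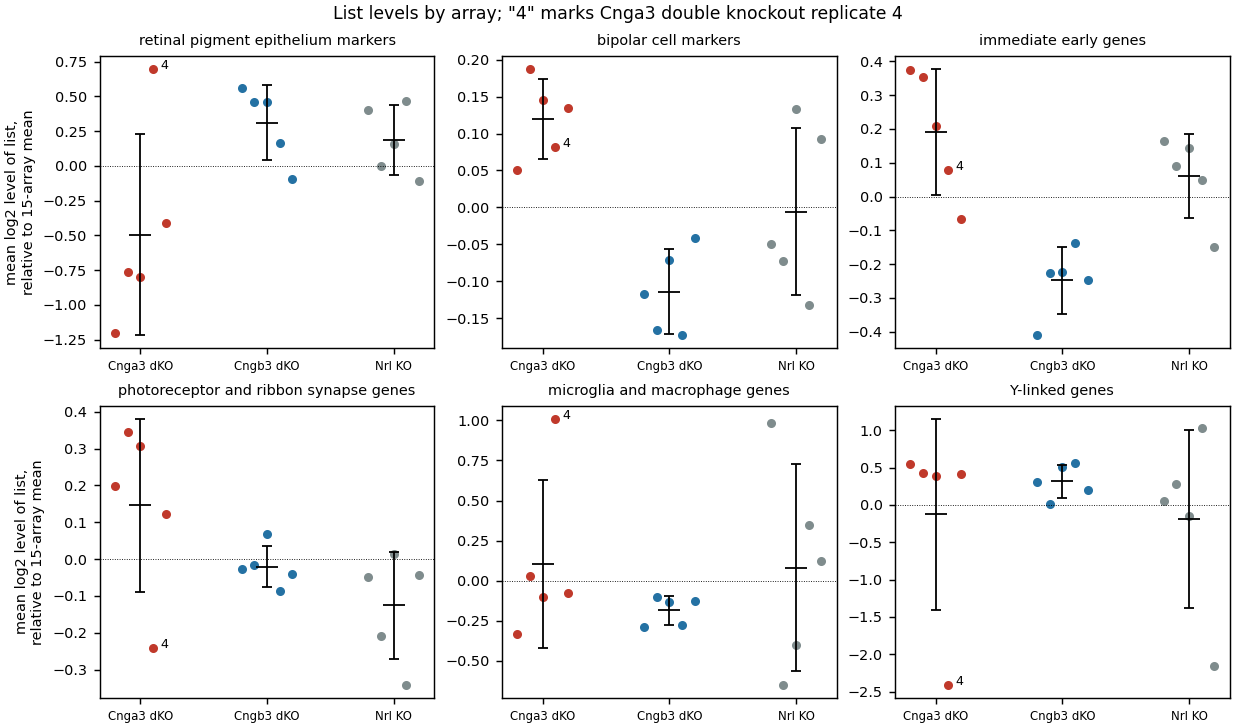
Mean log2 level of 6 gene lists on each array relative to the mean of the 15 arrays, for Cnga3 double knockout (dKO), Cngb3 double knockout and Nrl-/- retinas, with the mean and SD of 5 arrays. The array marked 4, Cnga3 double knockout replicate 4, is at 0.695 for pigment epithelium markers, 1.009 for microglia genes and -2.408 for Y-linked genes. The bipolar and immediate early lists do not overlap between the double knockouts, as is so for 3 of all 35 lists.

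Several called genes outside the list were lower in the same arrays. Pon1, the esterase paraoxonase 1 (difference -1.55, SE 0.305, adjusted p = 0.0371), Flvcr2, a membrane transporter (-1.36, SE 0.275, adjusted p = 0.0421), Car12, a carbonic anhydrase (-1.10, SE 0.224, adjusted p = 0.043), and Slc16a9, of the monocarboxylate transporter family (-0.97, SE 0.203, adjusted p = 0.0464), were called. In a fit added after the data were seen, with the mean pigment epithelium level of each array as a covariate, the differences were -1.01 for Pon1 (adjusted p = 0.0656), -1.07 for Flvcr2 (0.0593), -0.82 for Car12 (0.0642), -0.62 for Slc16a9 (0.085) and -0.93 for Stra6 (0.0757). The covariate is built from Rgr, Ttr, Rdh5 and the other markers, so their values with it are not given. Its level was lower on average in the Cnga3 double knockout, so it can take up part of the group difference. The fit with the covariate called 1207 probes. Of the 53 probes called in the main fit, 42 kept their call with it, and Ermap, a rise, did not (0.58, adjusted p = 0.0592). Differences were smaller for Cox6a2 (-1.36), Trf (-1.19) and the brighter probes of Dnaic1 (-1.51) and Ednrb (-1.50). They were larger for Pde6b (-1.61), Slc24a1 (-1.51) and Esrrb (-1.67). Leaving out Cnga3 replicate 4, the array with the highest covariate level, moved these the other way. The differences were then -1.12 for Pde6b, -0.98 for Slc24a1 and -1.58 for Esrrb, against -1.26, -1.13 and -1.60 with all arrays. The calls of Pon1, Flvcr2, Car12 and Slc16a9 were lost in 8 to 11 of the 15 fits that left out 1 array, with adjusted p-values of up to 0.149, for Slc16a9 without Cnga3 replicate 2. Car12 was detected on 1 of 5 Cnga3 double knockout arrays. Krt18, a keratin of simple epithelia, read 7.47, 7.54, 7.77, 8.06 and 7.71 in the Cnga3 double knockout, against 8.97, 9.14, 9.02, 8.74 and 8.49 in the Cngb3 double knockout. The groups did not overlap (difference -1.16, SE 0.153, adjusted p = 0.00136), and the call was kept in all 15 such fits. With the covariate the difference was -0.91 (adjusted p = 0.00781).

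A further metabolic gene and a further transport gene were lower in the Cnga3 double knockout. Cox6a2, the heart and muscle form of a cytochrome c oxidase subunit, read 5.40, 5.04, 5.37, 5.87 and 5.64 in the Cnga3 double knockout, against 7.37, 7.55, 7.36, 7.37 and 6.16 in the Cngb3 double knockout. Cngb3 replicate 5 was well below its group but above every Cnga3 double knockout array (difference -1.70, SE 0.238, adjusted p = 0.00263, 3.24-fold). It was the 1 call among 74 oxidative phosphorylation genes, whose median was 0.01. Cox6a2 was detected on 0 of 5 Nrl-/- arrays, so that the Cngb3 double knockout was at least 3.21-fold above Nrl-/- retinas (adjusted p = 5.36e-05), taking as the limit the lowest signal among detected probes of each array. For the Cnga3 double knockout no fold is given (adjusted p = 0.167). Slc7a3, a transporter of arginine and lysine, read 7.61, 7.56, 7.25, 7.55 and 7.74 in the Cnga3 double knockout, against 8.71, 8.83, 9.20, 8.68 and 8.55 in the Cngb3 double knockout. All 5 arrays of the Cnga3 double knockout were lower (difference -1.25, SE 0.137, adjusted p = 0.000363), and the Cngb3 double knockout was above Nrl-/- retinas by 0.94 (adjusted p = 0.00141). The calls of Cox6a2 and Slc7a3 were kept in all 15 fits that left out 1 array.

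The largest rises and the largest fall lay on chromosome 4, which carries Cngb3. Dnaic1, an intermediate chain of the dynein that moves cilia, was called on both probes. The brighter one read 7.82, 8.20, 8.50, 9.06 and 8.25 in the Cnga3 double knockout, against 10.46, 10.38, 10.53, 10.33 and 9.69 in the Cngb3 double knockout. The groups did not overlap (difference -1.91, SE 0.213, adjusted p = 0.000363, 3.76-fold). Dnaic1 differed from Nrl-/- retinas by -0.05 in the Cnga3 double knockout (adjusted p = 0.905) and by 1.86 in the Cngb3 double knockout (adjusted p = 0.000121), and it was the 1 call among 9 dynein and motile cilium genes. Necab1, a neuronal calcium-binding protein, read 8.08, 7.51, 6.52, 8.18 and 7.91 on its called probe in the Cnga3 double knockout, against 5.43, 5.6, 5.85, 5.27 and 5.24 in the Cngb3 double knockout. It was detected on 4 of 5 Cngb3 double knockout arrays. In Nrl-/- retinas the probe read 6.83, 7.4, 5.72, 8.6 and 7.23, with replicate 3 inside the range of the Cngb3 double knockout. That probe gave the largest rise (difference 2.16, SE 0.402, adjusted p = 0.0257), but the brighter Necab1 probe differed by 0.42 (adjusted p = 0.481), so the probes disagree. The call of Necab1 was lost in 7 of 15 fits that left out 1 array (Cnga3 replicates 2, 4 and 5, Cngb3 replicates 1 to 4), the adjusted p then reaching 0.0933 without Cnga3 replicate 5. In the limma fit on the 10 double knockout arrays alone it was 0.00334.

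The chemokine genes Ccl21a and Ccl21b are near-identical copies whose probes may share signal, so they cannot be counted as separate results. Ccl21a read 6.32, 5.85, 6.46, 6.14 and 5.77 in the Cnga3 double knockout, against 4.83, 4.93, 4.39, 4.50 and 4.46 in the Cngb3 double knockout, where it was detected on 0 of 5 arrays. It was therefore at least 1.7-fold higher in the Cnga3 double knockout (adjusted p = 0.0245), with the same limit as for Cox6a2. Ccl21b was at least 1.17-fold higher on the same basis (adjusted p = 0.0272). Ccl21a was detected on 5 Cnga3 double knockout and 2 Nrl-/- arrays, and Ccl21b on 4 and 1. Both thus passed the filter only through the group where they were high, so having passed it is no support for the difference. The Ccl21a call was lost in 4 of 15 fits that left out 1 array (Cnga3 replicate 3, Cngb3 replicates 1, 3 and 4; adjusted p up to 0.0845, without Cnga3 replicate 3). Ccl21b was lost in 6 (up to 0.0954, also without Cnga3 replicate 3). In the limma fit on the 10 double knockout arrays alone the adjusted p was 0.00145 for Ccl21a and 0.00801 for Ccl21b.

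By the brightest probe of each gene, 7 of 568 measured genes on chromosome 4 were called (1.23%), against 0.418% of all genes, and no other chromosome reached that share. One of the 7 is Cngb3 itself. Ccl21a and Ccl21b, also among them, are not separate results and passed the filter only through the Cnga3 double knockout, so the share is overstated. The next highest share was 0.742%, on chromosome 9. In gene order the called probes of Necab1, Dnaic1, Ccl21b and Ccl21a lay 34, 262, 295 and 320 genes from Cngb3, and Rnf220, Ermap and Hes5 lay 1455, 1534 and 2576 genes away. Of the 100 nearest genes, 13 were measured near Cngb3, with 0 called by the brightest probe. Near Cnga3, on chromosome 1, 23 were measured with 1 called (4.35%). That gene was Arhgef4, 49 genes from Cnga3. Arhgef4 averaged 10.74 ± 0.164 in the Cnga3 double knockout and 11.42 ± 0.0826 in the Cngb3 double knockout (difference -0.69, SE 0.116, adjusted p = 0.013). Its call was lost without Cngb3 replicate 2 (adjusted p = 0.056). Against Nrl-/- retinas Arhgef4 differed by -0.82 in the Cnga3 double knockout (adjusted p = 0.00131) and by -0.14 in the Cngb3 double knockout (adjusted p = 0.525). Near Nrl, which all groups lack, 0 of 33 measured genes were called. Among the 100 nearest protein-coding genes, 1 of 48 measured was called near Cnga3 (2.08%), 0 of 51 near Cngb3 and 0 of 41 near Nrl. Against Nrl-/- retinas, Ccl21a, Ccl21b and Rnf220 were called higher in the Cnga3 double knockout (adjusted p = 0.0215, 0.0259 and 0.0493 in limma). They were not called in the Cngb3 double knockout (0.448, 0.447 and 0.439). Necab1, Dnaic1 and Hes5 were called against Nrl-/- in the Cngb3 double knockout only, and Ermap in both. A DNA segment carried along with a targeted allele and an effect of losing the subunit cannot be told apart in this design.

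**Figure D4:**
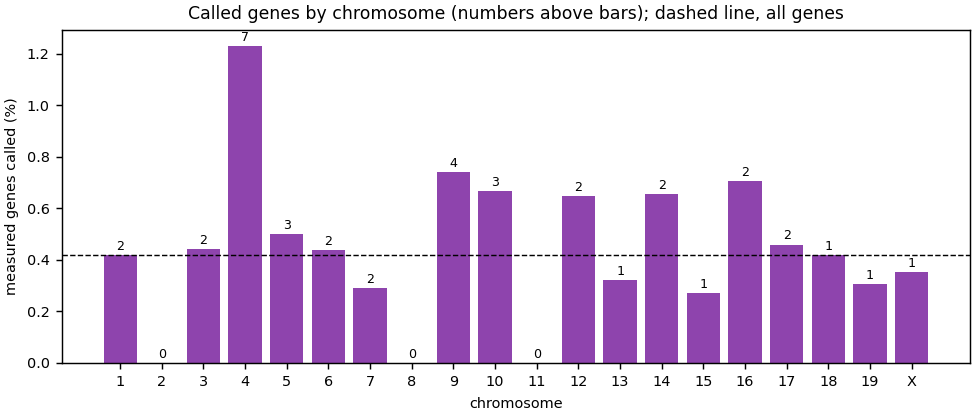
Share of measured genes called between Cnga3 and Cngb3 double knockout retinas, by chromosome, with the number of called genes above each bar and the share over all genes, 0.418%, as a dashed line. Chromosome 4, which carries Cngb3, has 7 of 568 genes called (1.23%), among them Cngb3 itself and the near-identical Ccl21a and Ccl21b.

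On chromosome 17, 2 of 436 measured genes were called by the brightest probe (0.459%), close to the share of all genes. H2-Q7, a non-classical class I histocompatibility gene, read 7.15, 8.13, 7.49, 8.6 and 7.5 in the Cnga3 double knockout, against 6.23, 6.47, 6.53, 5.98 and 6.85 in the Cngb3 double knockout. These ranges were also apart (difference 1.36, SE 0.249, adjusted p = 0.0246), but genes of this family are close copies, so the identity of the signal is uncertain. Without Cnga3 replicate 4 the difference was 1.15 (adjusted p = 0.032), and the call was lost in 5 of the 15 fits that left out 1 array (Cnga3 replicate 2, Cngb3 replicates 1 to 4), the adjusted p then reaching 0.0799 without Cngb3 replicate 1. Bag6, a chaperone of membrane proteins, was the other one and differed by 0.85 (SE 0.157, adjusted p = 0.0251). Yipf3, a Golgi membrane protein, was called on 1 of its 3 probes (difference 0.83, SE 0.168, adjusted p = 0.0414), with 0.29 and 0.08 on the others. Both of these calls were lost in single-array omissions, in 6 fits for Bag6 (up to 0.0891, without Cngb3 replicate 3) and in 10 for Yipf3 (up to 0.138, without Cnga3 replicate 2).

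The remaining called genes changed by at most 2.14-fold. R3hdm4 (difference 1.10, adjusted p = 0.0227), Rnf220, a ubiquitin ligase (1.05, adjusted p = 0.0469), and Ermap, an erythroid membrane protein (0.93, adjusted p = 0.0353), were higher in the Cnga3 double knockout. So were Peli3, a ubiquitin ligase (adjusted p = 0.0443, detected on 0 Cngb3 double knockout arrays and at least 1.36-fold higher), Naa60, an acetyltransferase (0.86, adjusted p = 0.0395), and 2410004B18Rik (0.69, adjusted p = 0.0443). Tgfbr3, a co-receptor for TGF-beta (-0.86, adjusted p = 0.047), Tuft1, tuftelin (-0.74, adjusted p = 0.0446), Chrd, the BMP antagonist chordin (-0.72, adjusted p = 0.0353), and Fam3c, a secreted protein (-0.64, adjusted p = 0.00894), were lower. Rnf220, Peli3, Naa60 and Fam3c each had a second probe, uncalled, with a difference of the same sign (0.31, 0.45, 0.27 and -0.61). Ermap was detected on 1 of 5 Cngb3 double knockout arrays and Tgfbr3 on 4 of 5 Cnga3 double knockout arrays. Of these 10 genes, Fam3c was the 1 whose call was kept in all 15 fits that left out 1 array. The other 9 were lost in 6 to 11 fits, with adjusted p-values of up to 0.157, for Tgfbr3 without Cnga3 replicate 2. Of the called probes that carry no gene symbol, ILMN_2819558 differed by 1.52 (adjusted p = 0.00332) and ILMN_3119014 by -1.01 (adjusted p = 0.00681), and both calls were kept in all 15 fits.

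Of the 35 gene lists, 13 had a called member and 22, with 430 memberships measured, had none, their medians running from -0.64 to 0.51. The immediate early genes, which neurons switch on with activity, had the highest median, 0.51, with 0 of 10 called. At an unadjusted p under 0.05, 5 of the 10 were higher, against 7.26% of all genes. Their mean level ran from -0.065 to 0.376 in Cnga3 double knockout and from -0.41 to -0.136 in Cngb3 double knockout retinas, without overlap, as was so for 3 of the 35 lists. Jun averaged 7.85 ± 0.162 in the Cnga3 double knockout and 7.21 ± 0.252 in the Cngb3 double knockout (adjusted p = 0.0775). Microglia and macrophage genes had 0 of 19 called and a median of 0.28, with 17 of 19 differences positive, and interferon, antigen presentation and complement genes 0 of 23 and 0.23, with 19 of 23 positive. The microglia level was 1.009 in Cnga3 replicate 4 and -0.333 to 0.026 in the other 4 Cnga3 double knockout arrays, against -0.291 to -0.102 in the Cngb3 double knockout. Without that array the median was 0.07 for microglia genes, with 14 of 19 differences positive, and 0.26 for interferon genes, with 16 of 23 positive. The median of immediate early genes was then 0.55. Genes of lens, cornea and iris, tissues beside the retina in the eye, had 0 of 25 called and the lowest median of these lists, -0.64 (-0.83 without that array). Their summed linear levels were 150000 to 251000 in Cnga3 double knockout, 139000 to 320000 in Cngb3 double knockout and 1480 to 246000 in Nrl-/- retinas. For the cone list such sums were 116000 to 139000 in Cnga3 double knockout and 122000 to 142000 in Cngb3 double knockout retinas. Whether carry-over of lens, cornea or iris has a part in that median was not tested. Genes of endoplasmic reticulum stress (0 of 21, median 0.12), heat shock and chaperones (0 of 23, 0.03), oxidative stress (0 of 33, -0.03), cell death (0 of 21, -0.06) and cyclic nucleotide signalling (0 of 22, -0.06) had no call. The same holds for markers of amacrine (0 of 19, 0.01), horizontal (0 of 8, -0.04) and ganglion cells (0 of 16, -0.11).

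**Figure D5:**
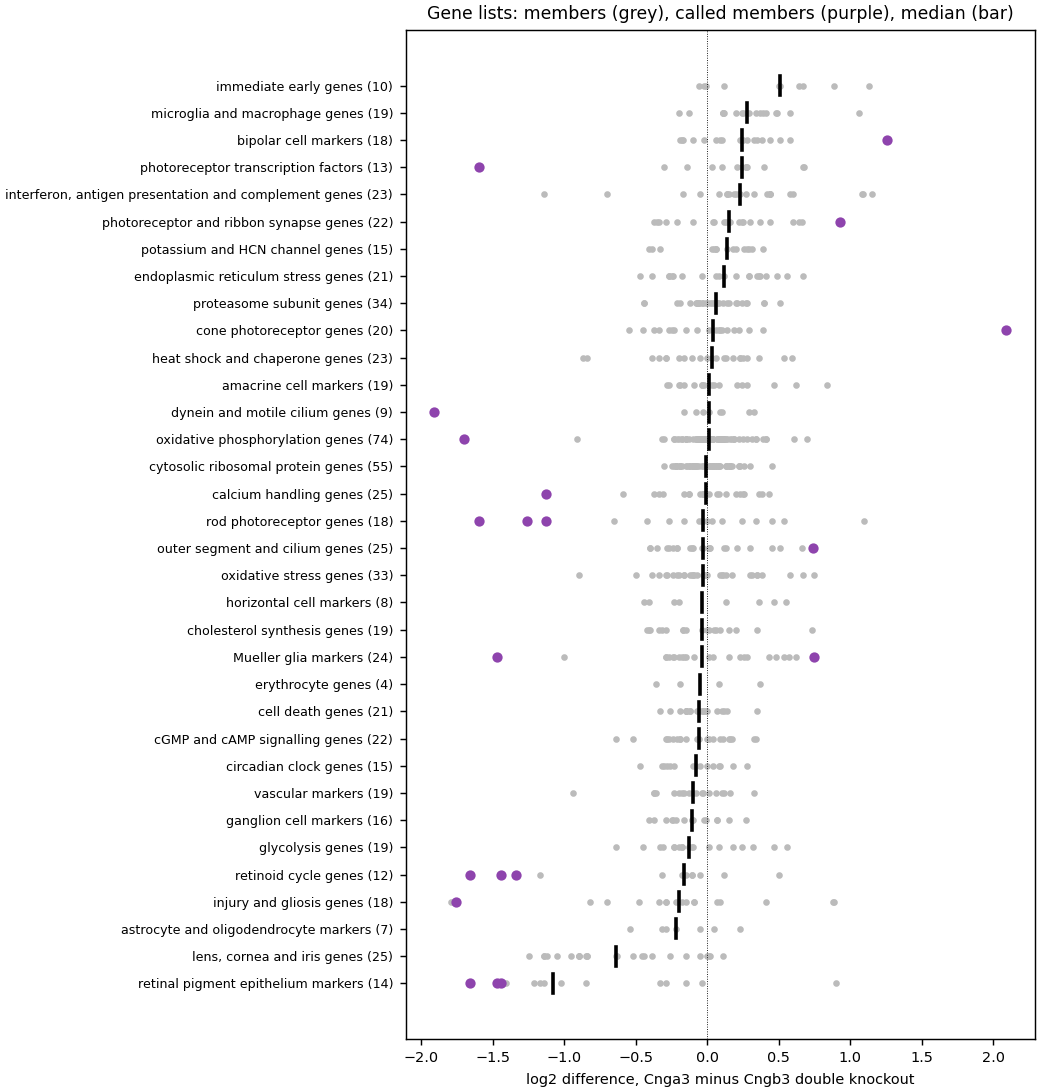
Log2 difference of Cnga3 minus Cngb3 double knockout for each measured gene of 34 lists (number measured in parentheses), with called genes in purple and the median of each list as a bar, ordered by median. Immediate early genes have a median of 0.51 with 0 called, and pigment epithelium markers a median of -1.08 with 3 called.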

How the data were processed

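Total RNA of mouse retinas at postnatal day 30 was hybridised to Illumina mouse expression beadchips, 15 arrays in 3 groups of 5, grouped by their labels. Per the submitters' processing notes the software was GenomeStudio, its version and settings not given in the sources used here. Deposited were 1 non-normalized intensity per probe and array and, per the file headers, its detection p-value. A second deposited table of the authors has log2 values, which equal the log2 of the quantile-normalized intensity to within 5e-09 and were used as the alternative without background correction.

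Intensities were processed in R 4.3.3 with limma 3.58.1 by neqc (normal-exponential background correction from the detection p-values, offset 16, quantile normalization, log2). The filter asked for a detection p under 0.01 on 5 or more arrays. A probe had 1 symbol in the platform's annotation for 23978 of 25697 probes and none for 1719. All 15 arrays entered 1 linear model with 12 residual and 4.73 prior degrees of freedom, so the 3 groups share one estimate of spread. Median SDs per probe were 0.268 in Cnga3 double knockout, 0.186 in Cngb3 double knockout and 0.308 in Nrl-/- retinas. Tests were two-sided, adjusted by Benjamini and Hochberg. P-values measure the spread between the animals' arrays. The fitting code was tested on simulated data.

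The groups, the 35 gene lists and the tests were chosen with earlier results of these data known. Named genes are the targeted genes, the 15 called genes with the largest positive and the 15 with the largest negative differences whose groups do not overlap, up to 4 called members of each list or 2 uncalled ones, and called genes among the 100 nearest to each targeted gene. Other genes were named after their values were seen. A gene's brightest probe stands for it in lists. Genes were ordered along chromosomes and promoters read from RefSeq tables of GRCm38.p6. Alternatives tried covered the arrays fitted, a replicate block, background correction, offset, normalization, filter, array weights, variance trend, thresholds, and leaving out each array.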

Additional observations from a re-analysis of the deposited data

Results flagged for a closer look

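Single arrays stood far from the other 4 of their group for 14 of the 110 groups of called, Cnga3 and Cngb3 probes examined and for 12 of the 70 groups of list levels, where chance gives about 5%. All 12 list levels belong to replicate 4 of the Cnga3 double knockout. This array was low for cone photoreceptor genes (-0.313, against 0.019 to 0.074 in the other 4), outer segment and cilium genes (-0.352, against -0.01 to 0.114), cyclic nucleotide signalling (-0.227), calcium handling (-0.262), glycolysis (-0.245) and Y-linked genes (-2.408). It was high for oxidative stress genes (0.373), injury and gliosis genes (0.597), microglia and macrophage genes (1.009), astrocyte and oligodendrocyte markers (0.072), oxidative phosphorylation genes (0.268) and cytosolic ribosomal protein genes (0.27). Its probes of 2410004B18Rik (9.23), ILMN_3084954 (8.45) and Ttr (13.4) were above the other 4, and ILMN_2819558 (7.59) was below them.

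Replicate 5 of the Cngb3 double knockout was the low array for Cox6a2 (6.16, against 7.36 to 7.55 in the other 4), Dnaic1 (9.69), ILMN_3119014 (8.97), Peli3 (4.61), Rdh5 (9.9) and a pair of Rgr probes (10.35 and 9.46), and the high array for Rnf220 (7.4). Replicate 2 of the Cngb3 double knockout was low for ILMN_2630975 (9.4), and replicate 1 of the Cnga3 double knockout was low for Naa60 (6.67).

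The 2 Xist probes, which were not kept for the tests, read 5.94 and 6.91 in replicate 4 of the Cnga3 double knockout, against 4.35 to 4.6 and 4.4 to 4.97 in the other 9 double knockout arrays. Xist is transcribed from the inactive X chromosome, and the labels give no sex. The fit without this array and the Nrl-/- array of low Y-linked signal is given with the other settings.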

How the results depend on the processing

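None of the 53 called probes changed direction in any setting where it was tested. Sign changes of probes uncalled in both the main and the alternative fit were not counted. The count of 53 called probes depended on the setting. It was 17 at an adjusted p under 0.01, 32 at 2-fold or more, 122 with the replicate number as a block, 201 with median centring in place of quantiles and 1170 with array weights. Under median centring the median of all probes moved to 0.095 and 85.1% of calls were higher, against 45.3%. Settings added after the data were seen gave 85 without the arrays of low Y-linked signal and 1207 with the pigment epithelium level as a covariate. Without 1 array it ran from 19 (without Cngb3 replicate 2) to 180 (without Cnga3 replicate 1). The cause was not tested. Replicate numbers did not pair the arrays, since correlations between same-numbered arrays ran from -0.093 to 0.14, and in the block fit 50 of the 53 calls were kept, without Arr3, Peli3 and Tuft1. The fit on the 10 arrays alone called 72 probes and kept 44 of the 53, without Pon1, Ermap, Ppp3ca, Tuft1, Ttr, Rdh5 and 2 Rgr probes among others. Without background correction 62 were called and 41 of the 53 kept, without Necab1, Ccl21a, Ccl21b, Car12, Flvcr2, Stra6, Ermap, Ppp3ca, Slc16a9, Tgfbr3, Naa60 and Peli3. Calls between Cnga3 double knockout and Nrl-/- retinas (1051) were 232 at an adjusted p under 0.01, 131 at 2-fold, 1880 with weights, 2232 with the covariate and 551 to 1229 without 1 array. Those between Cngb3 double knockout and Nrl-/- retinas (351) were 49, 71 and 1054 under the first 3 of these settings and 130 to 828 without 1 array. Probes without overlap (645) numbered 738 to 1479 without 1 array, as fewer arrays overlap less often, and 1092 without the arrays of low Y-linked signal. Of pigment epithelium markers 3 were called lower. That count was 0 on the 10 arrays alone, with normalization on those 10, without a filter, at 0.01 or with the covariate, which these markers make up, 1 with a variance trend, 10 with weights and 0 to 5 without 1 array. On the 10 arrays alone a different Rgr probe was the brightest and missed the threshold (adjusted p = 0.058 in limma). The Rgr probe counted in the main fit was still called there (0.0461). Near the targeted genes 1 was called. That count was 0 at 0.01 or at 2-fold, 2 by the lowest p of each gene, with median centring, with the block or without the arrays of low Y-linked signal, 6 with the covariate, 11 with weights and 0 to 2 without 1 array. Array intensity limits dim probes. Ccl21a, Ccl21b and Peli3, detected on 0 Cngb3 double knockout arrays, have bounds only, as does Cox6a2 against Nrl-/-. Ermap and Ppp3ca were detected on 1 of 5 Cngb3 double knockout arrays and Car12 on 1 of 5 Cnga3 double knockout arrays. The called probes of Ccl21a, Ccl21b, Peli3, Ppp3ca and Car12 passed the filter only through the group where they were high.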
